A study of Mus musculus with 7 samples.

Results

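Mouse embryonic fibroblasts (MEFs) that had received Gata4, Tbx5 and a fusion of Mef2c isoform 2 with the transactivation domain of MyoD were set against MEFs that had received nothing. The array of the transduced cells is called GT/M2TAD and that of the untreated cells MEF, after their labels. The genes described are those with an assigned symbol whose signal lay above background on at least 1 of both arrays, which were 5947 of 19505 measured genes (30.5%). Background was the 95th percentile of each array's negative-control probes, which are probes with no matching transcript, and it lay at 9.04 on GT/M2TAD and 8.81 on MEF on the log2 signal scale.

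The series asks how the form of Mef2c matters when fibroblasts are turned directly into heart muscle cells, and it holds 7 Clariom S mouse arrays, 1 for each condition. Besides the arrays named above, 3 carry Gata4 and Tbx5 with isoform 1, 2 or 6 of Mef2c without the domain (GT/M1, GT/M2 and GT/M6), and their values are given beside some genes only as a description. The last pair carries siRNA against Ep300 or a control siRNA and is called siEp300 and siCtrl, because its titles and source names disagree on the Mef2c form. Retroviruses carried the genes, the medium was exchanged 24 h after infection, transduced cells were collected at 1 week, and each array started from 100 ng of RNA with an integrity number above 7. The MEF cells had no virus and their time in culture was not given, and no array held virus without the factors, so the factors, infection and culture time cannot be told apart in any value below. The transduced dishes were collected whole, without a sort, so a larger share of cells of a kind and more RNA per cell cannot be told apart either.

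Gata4, Mef2c and Tbx5 are transcription factors of the developing heart that, given together, move fibroblasts towards a cardiac muscle programme. Mef2c binds AT-rich elements near muscle genes, often together with the other factors, and MyoD, the master regulator of skeletal muscle, carries a strong acidic activation domain that recruits coactivators such as the acetyltransferase p300. Cells on this path are known to take up sarcomere and calcium-handling genes while leaving the cell cycle and shedding fibroblast matrix genes.

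With 1 array for each condition there were no replicates, hence no spread, no error and no test on any value. A gene is called higher or lower here when its log2 difference, GT/M2TAD minus MEF, was at least 1, which is 2-fold, after any signal not above background had been set to the limit of its array. A difference with 1 signal at that limit is a lower bound and is written "at least". Of the 5947 genes, 1329 (22.3%) were at least 2-fold higher, 964 (16.2%) at least 2-fold lower, 38.6% together, and 3654 lay within 2-fold. At least 4-fold, 470 (7.9%) were higher and 309 (5.2%) lower, and at least 16-fold, 77 (1.29%) and 49 (0.824%). Of the negative-control probes above background on at least 1 array, 9.97% passed the same rule upwards and 6.34% downwards, so a gene that only just passes carries little weight. At the edge of the choice, Gla and Tmem192 were just inside, each at 9.04 on GT/M2TAD with MEF signals of 8.13 and 8.37, and Bend4 was just outside, also at 9.04 on GT/M2TAD, with 6.44 on MEF. Both arrays read 4286 of the genes above background, and among these 20.7% were higher and 15.7% lower. The other genes were above background on GT/M2TAD alone (835) or on MEF alone (826), and such a gene can count only as higher if read on GT/M2TAD and only as lower if read on MEF. The median log2 difference over the 5947 genes was 0.12. Centring the arrays on their medians turned the split round, to 1013 higher and 1307 lower, and moved the median over all measured genes to -0.17, against 0.09 as deposited.

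**Figure D1:**
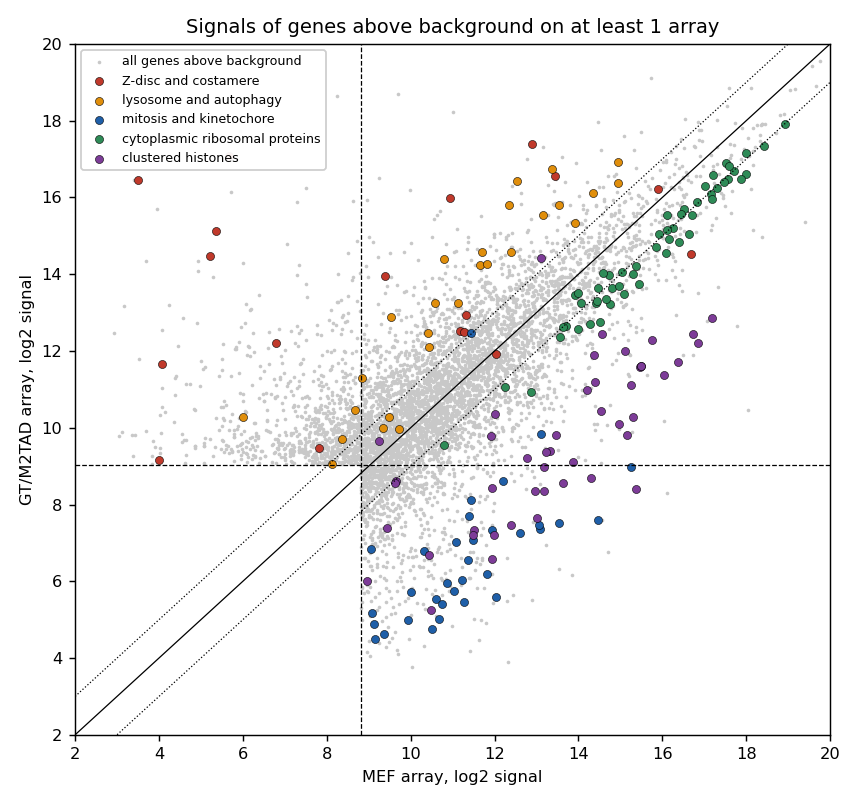
Log2 signal on GT/M2TAD (vertical) against MEF (horizontal) for the 5947 genes above background on at least 1 array, with 5 gene lists coloured, the background limits dashed and the 2-fold band dotted. Z-disc and lysosome genes lie mostly above the band and mitosis and histone genes mostly below it, while ribosomal protein genes run along its lower edge.

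The transduced factors were read as a check of the labels. Mef2c had a log2 signal of 18.64 on GT/M2TAD and 8.24 on MEF, at least 913-fold higher, and Tbx5 had 16.14 and 5.72 on the same arrays, at least 161-fold higher. Both signals can include the virus transcript and the cell's own. Gata4 was not above background on either array, at 4.96 on GT/M2TAD and 4.22 on MEF, and neither was Myod1, at 3.21 and 3.54. Where the probes of these genes lie was not given, so those readings check the labels only in part. Of 12 listed markers of cardiac muscle, 7 were above background on GT/M2TAD and 1 on MEF. Of 11 measured fibroblast markers, 9 were above background on either array, and 6 of the 10 read on at least 1 of them were lower on GT/M2TAD. Vim, the mesenchymal intermediate filament, stayed at 18.81 on GT/M2TAD and 19.04 on MEF. The summed linear signal of the fibroblast markers, as a log2 value, was 19.01 on GT/M2TAD and 19.38 on MEF, and that of the cardiac markers 19.25 and 10.43. Vim alone makes up most of the fibroblast sums, while the median difference of the 10 fibroblast markers was -1.76.

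Genes of the contractile apparatus were higher on GT/M2TAD, 23 in all against 1 lower. Of the thick filament and M-band genes, 4 of the 6 above background were at least 2-fold higher and none lower. All 6 were above background on GT/M2TAD alone, so none could count as lower, and 1 was higher with background at the 99th percentile of the control probes. Myl4, the essential light chain of atrial and embryonic myosin, had a signal of 17.90 on GT/M2TAD and 6.55 on MEF, at least 546-fold higher. Myl7, the atrial regulatory light chain, had 13.16 on GT/M2TAD and 3.16 on MEF, at least 20.4-fold higher, with 15.50 to 16.18 on the native isoform arrays. Smpx, a small muscle protein of the costamere, and Mybpc3, cardiac myosin binding protein C, were at least 21.2-fold and 5.86-fold higher. Each of these genes was above the limit on GT/M2TAD and not above it on MEF. The heavy chains did not follow: Myh6, the alpha chain, was at 8.21 on GT/M2TAD and 4.75 on MEF, and Myh7, the beta chain, at 4.77 and 4.37, with neither gene above background on either array. Titin, Ttn, at 9.78 on GT/M2TAD and 6.36 on MEF, lay just over the limit, and its bound of 0.97 fell short of 2-fold.

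Of 12 thin filament genes above background, 5 of them on GT/M2TAD alone, 6 were higher and none lower, around a median of 1.00. With background at the 99th percentile of the control probes, 2 were higher. Tnnt2, cardiac troponin T, had a signal of 17.67 on GT/M2TAD and 7.61 on MEF, at least 464-fold higher. Actc1, cardiac alpha actin, was above background on both arrays, at 13.93 on GT/M2TAD and 8.97 on MEF, 31.0-fold higher. Tnnc1, the calcium sensor of cardiac and slow troponin, was at least 22.3-fold higher, and Cap2, an actin regulator of striated muscle, 16.6-fold higher, at 13.72 on GT/M2TAD and 9.67 on MEF. Tnnt2, Tnnc1 and Actc1 thus went the same way. Tropomyosins, which fibroblasts express for their stress fibres, stayed within 2-fold, with Tpm1 at 18.18 on GT/M2TAD and 18.90 on MEF and Tpm3 at 16.59 and 16.58. Tnni3, cardiac troponin I, was not above background on either array, at 6.31 on GT/M2TAD and 4.88 on MEF. Fhod3, a formin of the sarcomere, had a bound of 2.19-fold that fell under 2-fold with each of the scalings tried (quantile normalization, centring on the median, and centring by signal level).

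At the Z-disc, which anchors thin filaments, and the costamere, which ties it to the membrane, 13 of 18 genes were higher and 1 lower, with a median of 2.99. Of the 18, 8 were above background on GT/M2TAD alone, so these could not count as lower. Csrp3, muscle LIM protein, had 16.46 on GT/M2TAD and 3.50 on MEF, at least 202-fold higher, and Pdlim3, an actinin-associated LIM protein, 17.09 and 5.68, at least 312-fold higher. Synpo2l, a Z-disc actin-binding protein, had 15.12 on GT/M2TAD, 5.35 on MEF and 9.50 to 12.70 on the native isoform arrays, at least 79.5-fold above MEF. Ldb3, which holds actinin at the Z-disc, was at least 51.1-fold higher and Des, the muscle intermediate filament desmin, at least 10.6-fold. Genes read on both arrays went the same way: Sorbs2, a costamere adaptor, was 33.2-fold higher, Sgcb, beta-sarcoglycan, 23.5-fold and Cryab, the chaperone of desmin and titin, 22.3-fold. Myoz2, which links calcineurin to the Z-disc, had 11.65 on GT/M2TAD and 4.08 on MEF, at least 7.19-fold higher. Actn2, sarcomeric alpha-actinin, was only just above background, at 9.47 on GT/M2TAD against 7.81 on MEF, and its bound of 0.66 stayed under 2-fold. Pdlim1, a LIM protein of stress fibres in many cells, was the 1 lower member, at 14.53 on GT/M2TAD and 16.68 on MEF, 4.44-fold lower.

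**Figure D2:**
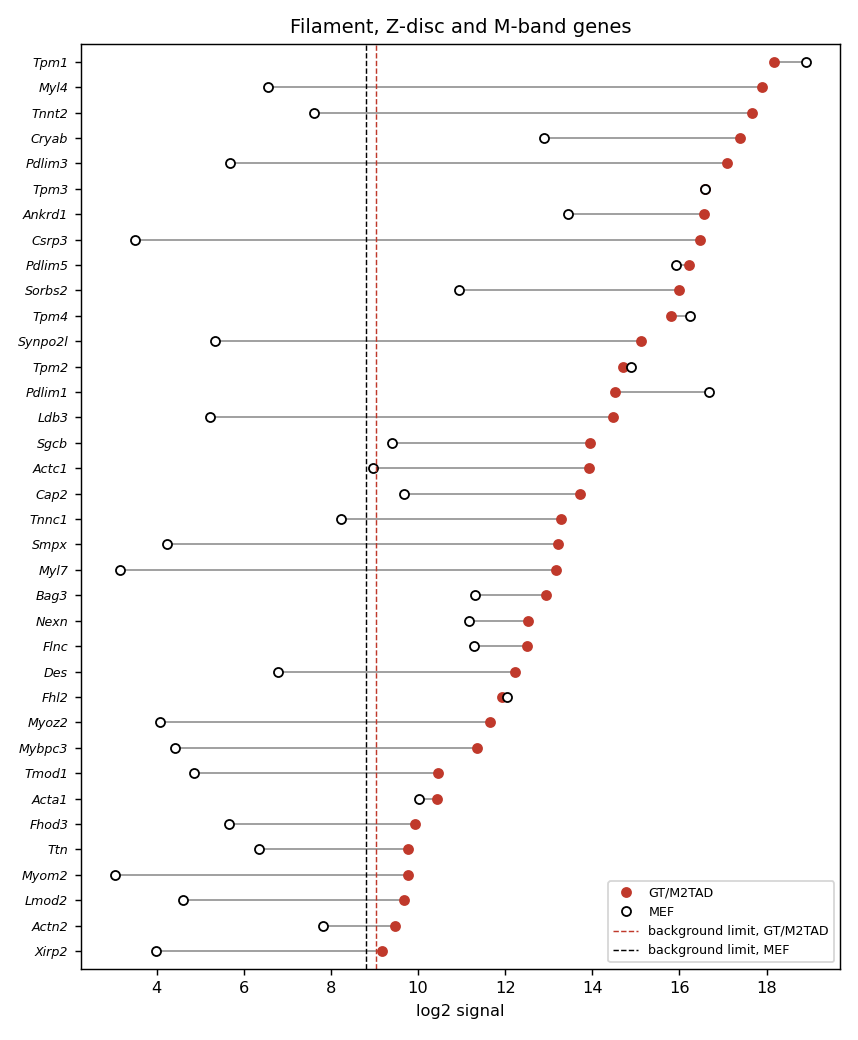
Log2 signals of thick filament, thin filament, Z-disc and costamere genes above background on at least 1 array, GT/M2TAD as filled and MEF as open circles, with both background limits dashed. Genes such as Csrp3, Myl7 and Pdlim3 pair a high signal on GT/M2TAD with 1 under the limit on MEF, while the tropomyosins sit together at high signals.

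Promoters were read for the contraction genes because many of them were higher together. RefSeq promoter windows of the GRCm38.p6 assembly, 250 bases before the annotated start, were found for 15691 measured genes and for 20 of the 23 contraction genes that were higher. Both strands were searched. The core of the Gata site, GATAA, was in 9 of those 20 (45.0%), against 20.4% of all 15691 promoters and 13.6% of the 4889 found among genes above background, and the MEF2 motif in 3 (15.0%), against 1.64% and 1.04%. The searched motifs overlapped rarely, with GATAA and the MEF2 motif sharing bases in 1 promoter of all. The 4 printed here belong to the natriuretic peptide Nppa, troponin T and a pair of Z-disc genes, with matches to GATAA or the MEF2 motif in capitals. A match describes these letters and says nothing of binding.

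Nppa, chr4:148000472-148000721, plus strand: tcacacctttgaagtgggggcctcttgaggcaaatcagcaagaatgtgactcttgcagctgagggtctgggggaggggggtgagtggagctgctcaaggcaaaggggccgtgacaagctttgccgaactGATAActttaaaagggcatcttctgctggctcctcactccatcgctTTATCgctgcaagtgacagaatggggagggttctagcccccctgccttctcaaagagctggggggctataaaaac

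Tnnt2, chr1:135836084-135836333, plus strand: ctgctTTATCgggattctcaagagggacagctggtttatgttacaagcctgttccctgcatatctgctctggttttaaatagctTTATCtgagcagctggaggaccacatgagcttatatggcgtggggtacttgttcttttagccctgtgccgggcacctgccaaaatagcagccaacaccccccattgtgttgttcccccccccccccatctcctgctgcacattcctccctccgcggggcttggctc

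Myoz2, chr3:123034988-123035237, minus strand: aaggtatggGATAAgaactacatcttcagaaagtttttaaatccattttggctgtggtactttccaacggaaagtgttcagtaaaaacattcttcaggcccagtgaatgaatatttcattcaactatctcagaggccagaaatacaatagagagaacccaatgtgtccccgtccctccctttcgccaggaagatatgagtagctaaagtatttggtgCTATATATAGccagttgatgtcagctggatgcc

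Synpo2l, chr14:20668355-20668604, minus strand: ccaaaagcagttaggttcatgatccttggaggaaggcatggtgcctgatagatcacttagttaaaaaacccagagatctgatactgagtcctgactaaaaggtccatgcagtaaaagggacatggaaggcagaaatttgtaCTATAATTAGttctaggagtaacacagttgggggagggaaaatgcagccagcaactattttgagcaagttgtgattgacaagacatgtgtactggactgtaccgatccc

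In the Nppa, Tnnt2 and Myoz2 windows the GATAA match nearest the start lay 71, 162 and 237 bases before it. The MEF2 motif lay 24 bases before the start in Myoz2 and 100 bases before it in Synpo2l.

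Calcium handling by the sarcoplasmic reticulum drives each contraction. Of 7 such genes above background, 3 of them on both arrays, 5 were higher and none lower, or 3 higher after median centring. Casq2, the cardiac calcium store protein calsequestrin, had 14.34 on GT/M2TAD and 4.94 on MEF, at least 46.3-fold higher. Atp2a2, the calcium pump of the reticulum, was read on both arrays, at 16.60 on GT/M2TAD and 14.89 on MEF, 3.27-fold higher. Sln, which restrains that pump, had a bound of 2.70-fold, at 10.24 on GT/M2TAD and 7.00 on MEF. Ryr2, the release channel, was at 9.89 on GT/M2TAD, 3.12 on MEF and 10.36 to 11.66 on the native isoform arrays, and its bound of 2.12-fold fell under 2-fold with each of the scalings tried. Pln, phospholamban, the other restraint of the pump, was not above background on either array. Of 27 measured channels and exchangers of the surface membrane, 24 were above background on neither array, and Atp1b1, a subunit of the sodium pump, was 5.14-fold higher, at 13.40 on GT/M2TAD and 11.04 on MEF.

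Among natriuretic peptides and stress hormones, 4 of 7 genes were higher and 1 lower, against 22.3% and 16.2% of all genes. Of the 7, 4 were above background on GT/M2TAD alone and 2 on MEF alone. Each of these could count in 1 direction only. Nppa, atrial natriuretic peptide, had the largest bound of this list, with 18.52 on GT/M2TAD and 5.09 on MEF, at least 841-fold higher. Its signal on the native isoform arrays was 14.88 to 16.77. Nppb, the B-type peptide, was barely over the limit, at 9.25 on GT/M2TAD and 3.39 on MEF, and stayed under 2-fold as a bound. Npr2, the receptor of C-type natriuretic peptide, was read on both arrays and was 17.4-fold higher, at 13.50 on GT/M2TAD and 9.38 on MEF. Scg2, a granin of secretory granules, was at least 15.2-fold higher and Ramp1, a partner of the calcitonin receptor family, at least 4.47-fold. Adm, adrenomedullin, which signals through related receptors, was at least 6.45-fold lower, at 8.92 on GT/M2TAD and 11.73 on MEF.

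Cell junction genes went both ways, 6 of 12 higher and 3 lower. Dsp, desmoplakin, which ties desmosomes to desmin, had 15.70 on GT/M2TAD and 3.95 on MEF, at least 119-fold higher. Other junction genes that rank high were read on both arrays: Cdh13, T-cadherin, was 61.4-fold higher, Perp, a desmosomal membrane protein, 22.1-fold, Jup, plakoglobin, 11.0-fold and Cdh2, N-cadherin, 6.74-fold. Each of these genes had its higher signal on GT/M2TAD. Cdh11, the cadherin of mesenchyme, was 4.57-fold lower, at 13.09 on GT/M2TAD and 15.29 on MEF. Both connexins read were lower: Gja1, connexin 43, had 12.20 on GT/M2TAD and 13.65 on MEF, 2.72-fold lower, and Gjc1, connexin 45, was at least 2.41-fold lower.

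Of 29 transcription factors of the heart, 10 were above background on at least 1 array. Of these, 4 were higher, the transduced Mef2c and Tbx5 among them, and 3 were lower. Mef2d, a relative of Mef2c, was 2.21-fold higher, and less than 2-fold with median centring. Tbx2, a repressor of chamber genes, was at 10.22 on GT/M2TAD and 8.05 on MEF, a bound of 2.66-fold. Foxp1, a forkhead repressor, was 8.77-fold lower, at 11.75 on GT/M2TAD and 14.89 on MEF. Srf, the factor behind both stress fibre and muscle genes, was 3.40-fold lower, at 9.55 on GT/M2TAD and 11.31 on MEF, and Meis2 2.98-fold lower. Nkx2-5, at 3.33 on GT/M2TAD and 3.63 on MEF, Hand2, at 4.76 and 4.77, and Tbx20, at 6.82 and 3.98, were not above background on either array. Of 37 genes of skeletal muscle, which MyoD controls, 3 were above background, and Myl1, the fast essential light chain, was at least 13.5-fold higher, at 12.56 on GT/M2TAD, 6.85 on MEF and 6.77 to 10.13 on the native isoform arrays. Eno3, the muscle enolase, was at least 25.1-fold higher.

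Smooth muscle genes tended down, with 2 of 12 higher and 4 lower and a median of -0.68. Cnn1, calponin, was 18.9-fold lower, at 11.38 on GT/M2TAD and 15.63 on MEF, Actg2, enteric smooth muscle actin, 10.2-fold and Tagln, transgelin, 3.48-fold. Acta2, smooth muscle actin, the mark of activated fibroblasts, was at 18.89 on GT/M2TAD and 19.66 on MEF, within 2-fold. Mustn1, a small nuclear protein of muscle and bone, was at least 53.5-fold higher, at 14.55 on GT/M2TAD and 8.51 on MEF.

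Heart muscle burns fatty acids, and 13 of 21 genes of fatty acid uptake and oxidation above background were higher with 1 lower and a median of 1.53, and 7 of the 21 were above background on GT/M2TAD alone. Fabp3, the heart-type carrier, had 16.26 on GT/M2TAD and 7.50 on MEF, at least 175-fold higher. Pdk4, the kinase that shuts glucose carbon out of the mitochondria, was at least 44.7-fold higher, at 14.29 on GT/M2TAD and 5.99 on MEF. The beta-oxidation enzymes Acaa2 and Acadl were read on both arrays and were 12.3-fold and 10.5-fold higher, and Cpt1a, the entry step, 6.38-fold. The genes that were higher thus run through uptake, entry and oxidation. Fabp5, a carrier of skin and other dividing tissues, was the 1 lower gene, at 6.06 on GT/M2TAD and 10.85 on MEF, at least 3.49-fold lower.

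The tricarboxylic acid cycle and the respiratory chain differed far less. Of 21 cycle genes, 3 were higher and none lower, with a median of 0.22, and of 39 respiratory chain genes, 6 and none, with a median of 0.25, shares below that of all genes. Median centring turned both medians slightly negative, to -0.04 and -0.01, and left 3 respiratory chain genes higher and 1 lower. Mpc1, the pyruvate carrier, was 6.00-fold higher, at 14.63 on GT/M2TAD and 12.04 on MEF, and Cox6a1, a subunit of complex IV, 3.27-fold. Citrate synthase, Cs, was at 14.67 on GT/M2TAD and 14.74 on MEF.

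Glycolysis and hypoxia genes split, 7 of 20 higher and 5 lower. Ero1a, an oxidase of the endoplasmic reticulum that hypoxia induces, was 17.0-fold higher, at 15.19 on GT/M2TAD and 11.10 on MEF, and Pfkp, a phosphofructokinase, 8.47-fold. On the other side, Slc2a1, the glucose carrier of most cells, was 7.42-fold lower, at 12.49 on GT/M2TAD and 15.38 on MEF, Pgk1 4.47-fold and Ldha 2.59-fold. Ldhb, the heart-type lactate dehydrogenase, was at 10.80 on GT/M2TAD and 6.99 on MEF, a bound of 3.99-fold, so the heart-type and muscle-type subunits went opposite ways. Of 9 genes of glycogen, creatine and oxygen storage, 4 were higher and none lower, with a median of 0.74. Ppp1r3c, which targets a phosphatase to glycogen, was at 16.46 on GT/M2TAD and 3.40 on MEF, at least 201-fold higher. Gyg, the glycogenin primer, was at least 10.1-fold higher and Pygb, a glycogen phosphorylase, 6.06-fold.

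Enzymes of amino acid and one-carbon supply, which dividing cells need for nucleotides, were lower in 6 of 18 cases and higher in 1, with a median of -0.69. Bcat1, the cytosolic branched-chain aminotransferase, had 6.76 on GT/M2TAD and 14.71 on MEF, at least 50.9-fold lower. Phgdh, which starts serine synthesis, was 5.36-fold lower and Shmt2, which feeds serine carbon to folate, 4.81-fold. Ddit3, a stress factor, was the 1 higher gene, 4.09-fold, at 11.18 on GT/M2TAD and 9.14 on MEF. Of 24 antioxidant genes, 7 (29.2%) were higher, or 4 after median centring, and 5 (20.8%) were lower. These shares lay near those of all genes, 22.3% and 16.2%. Gpx3, the secreted glutathione peroxidase, had 17.74 on GT/M2TAD and 5.92 on MEF, at least 489-fold higher. Txnip, which binds thioredoxin, was 7.65-fold higher while thioredoxin itself, Txn1, was 3.26-fold lower, at 15.09 on GT/M2TAD and 16.80 on MEF. Cholesterol genes were even, 4 of 20 higher, or 2 after median centring, and 4 lower, with Abca1, the cholesterol exporter, at least 5.61-fold higher and the fatty acid synthase Fasn 2.56-fold lower.

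Of 33 mitosis and kinetochore genes above background, 25 were at least 2-fold lower and 1 higher, and 31 of the 33 were above background on MEF alone, so these could count only as lower or within 2-fold and their values are bounds. Mki67, the classic mark of cycling cells, had 8.97 on GT/M2TAD and 15.26 on MEF, at least 74.7-fold lower. Plk1, the mitotic entry kinase, was at least 43.3-fold lower, at 7.61 on GT/M2TAD, 14.48 on MEF and 9.70 to 10.68 on the native isoform arrays, and Ccna2, cyclin A, at least 22.7-fold. Ube2c, the conjugating enzyme of the anaphase-promoting complex, was at least 16.1-fold lower, and Top2a, topoisomerase II, at least 7.43-fold. Kif23, a kinesin of the cell's midzone, was read on both arrays and was 9.55-fold lower, at 9.85 on GT/M2TAD and 13.11 on MEF. Cenpa, the centromeric histone, was the 1 higher gene, 2.02-fold, and fell under 2-fold with each of the scalings tried.

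Genes of DNA replication and nucleotide supply were lower in 15 of 23 cases with none higher, and those of DNA repair and the chromatin of cycling cells in 13 of 17 with none higher. Of these genes, 21 of the 23 and 13 of the 17 were above background on MEF alone, and with background at the 99th percentile of the control probes 3 and 4 were lower. Rrm2, the inducible subunit of ribonucleotide reductase, had 7.60 on GT/M2TAD and 14.56 on MEF, at least 45.9-fold lower, and its partner Rrm1, read on both arrays, was 17.9-fold lower. Pcna, the polymerase clamp, stayed high on GT/M2TAD, at 12.63 against 15.37 on MEF, 6.70-fold lower. The helicase genes Mcm2 to Mcm6 on the list ranged from at least 2.70-fold lower for Mcm3 to at least 13.3-fold for Mcm6. H2ax, a histone variant that marks DNA breaks, was 32.3-fold lower, at 9.15 on GT/M2TAD and 14.17 on MEF, and Smc4, a condensin subunit, 13.9-fold. Inhibitors of the cycle and targets of p53 were higher in 7 of 17 cases and lower in 1. Cdkn1a, the inhibitor p21, was 2.86-fold higher from a signal that was already high, at 18.05 on GT/M2TAD and 16.53 on MEF. Btg2 and Trp53inp1, both p53 targets that restrain growth, were 8.87-fold and 9.59-fold higher, and Plk2 was 9.71-fold lower.

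Replication-dependent histones, whose messenger RNAs exist mainly in S phase and lack a poly(A) tail, were mostly lower. This list was written after their values had been seen. Of 47 clustered histone genes above background, 41 were at least 2-fold lower and 1 higher, with a median of -3.66, and 28 were read on both arrays. H3c11 had 9.80 on GT/M2TAD and 15.15 on MEF, 40.9-fold lower, and H2ac10 10.27 and 15.29, 32.4-fold lower. H2ac15 was at least 80.3-fold lower, at 8.41 on GT/M2TAD and 15.37 on MEF. H2bc4, at 14.43 on GT/M2TAD and 13.11 on MEF, was 2.51-fold higher. Copies of a histone are nearly identical, and the sets for H3c14 and H3c15 gave equal signals, 11.62 on GT/M2TAD and 15.49 on MEF, so which copy a set reads is uncertain and the copies are not separate measurements.

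CCAAT, the site of the factor NF-Y, was searched in promoter windows of the lower division genes. It was in 17 of 21 mitosis promoters found (81.0%), in 9 of 13 replication promoters (69.2%) and in 30 of 39 histone promoters (76.9%). Its share was 36.0% of all 15691, 37.4% among genes above background and 41.4% among genes at least 2-fold lower. Among lower genes of ribosome biogenesis and cytoplasmic ribosomal proteins it was in 6 of 16 (37.5%) and 9 of 27 (33.3%). TTTGAA, the core of the cell cycle homology region, was in 9 mitosis promoters (42.9%) and 15 histone promoters (38.5%), but in 1 replication promoter (7.69%). Its share was 14.2% of all, 10.3% among genes above background and 14.4% among genes at least 2-fold lower. It was in 3 of the ribosome biogenesis promoters and in 0 of the ribosomal protein promoters. Paired histone genes can share a promoter, so their windows are not independent. CCAAT shared bases with TTTGAA in 18 promoters of all, and with GATAA in 44. The windows of 4 genes named above are shown with CCAAT and TTTGAA, on either strand, in capitals.

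Plk1, chr7:122159185-122159434, plus strand: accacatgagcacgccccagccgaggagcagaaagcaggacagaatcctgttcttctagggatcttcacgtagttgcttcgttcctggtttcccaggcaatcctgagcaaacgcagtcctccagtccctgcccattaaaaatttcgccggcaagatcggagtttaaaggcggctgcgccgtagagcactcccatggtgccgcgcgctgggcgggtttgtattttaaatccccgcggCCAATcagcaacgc

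Mki67, chr7:135716380-135716629, minus strand: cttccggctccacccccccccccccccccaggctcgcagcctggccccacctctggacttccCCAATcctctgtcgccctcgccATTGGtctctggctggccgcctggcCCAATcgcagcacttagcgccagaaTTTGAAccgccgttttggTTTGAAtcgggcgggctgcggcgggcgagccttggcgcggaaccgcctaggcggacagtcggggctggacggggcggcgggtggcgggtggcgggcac

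Top2a, chr11:99024190-99024439, minus strand: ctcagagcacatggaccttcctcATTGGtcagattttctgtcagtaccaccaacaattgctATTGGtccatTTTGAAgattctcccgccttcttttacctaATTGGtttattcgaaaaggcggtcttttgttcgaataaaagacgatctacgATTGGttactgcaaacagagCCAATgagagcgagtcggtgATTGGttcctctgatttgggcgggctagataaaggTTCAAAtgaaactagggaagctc

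Ube2c, chr2:164769679-164769928, plus strand: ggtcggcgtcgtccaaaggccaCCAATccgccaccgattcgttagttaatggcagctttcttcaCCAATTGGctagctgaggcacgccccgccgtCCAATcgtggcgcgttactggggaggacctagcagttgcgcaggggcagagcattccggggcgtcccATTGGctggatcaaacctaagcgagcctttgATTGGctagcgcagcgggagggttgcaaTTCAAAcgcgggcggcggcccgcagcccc

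Plk1 held 1 CCAAT, 10 bases before its start, and Mki67 3 with 2 of TTTGAA. Top2a and Ube2c held 6 CCAAT boxes each, some reading ATTGG on the strand shown.

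Genes that make ribosomes were lower as well. Of 28 genes of ribosome biogenesis and Myc, 20 were lower and none higher, with a median of -1.66, and 18 were read on both arrays. Myc, which drives this programme, was 7.84-fold lower, at 12.56 on GT/M2TAD, 15.53 on MEF and 13.62 to 15.44 on the native isoform arrays. Nop58 and Fbl, partners in the methylation of ribosomal RNA, were 8.15-fold and 4.66-fold lower, Ddx21, a nucleolar helicase, 5.74-fold, and Ncl, nucleolin, 3.78-fold. Most of these genes stood above background on either array. Cytoplasmic ribosomal protein genes, a list added after values were seen, were lower in 54 of 54 cases, each above background on both arrays, and 35 passed 2-fold. Their differences were narrow, between -1.94 and -0.46 with a median of -1.08. Rpsa had 12.76 on GT/M2TAD and 14.52 on MEF, 3.40-fold lower, and Rplp0, a common control gene, 14.22 and 15.37, 2.22-fold lower. The count past 2-fold moved to 27 with quantile normalization, 47 with median centring and 26 with centring by signal level. These genes have many processed pseudogenes, so single members are uncertain. Mitochondrial ribosomal proteins, with 1 of 50 higher and 7 lower, and proteasome subunits, with 1 of 31 higher and 1 lower, stayed close to the centre, at medians of -0.19 and -0.28. Of the mitochondrial set, 11 were past 2-fold lower with quantile normalization, 12 with median centring and 11 with centring by signal level.

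Lysosome and autophagy genes were higher in a body. Of 27 genes above background, 22 were at least 2-fold higher and none lower, the median was 2.13, and 23 were read on both arrays. Ctsa, the protective cathepsin, had 16.43 on GT/M2TAD and 12.55 on MEF, 14.8-fold higher. Hexa, beta-hexosaminidase, was 12.1-fold higher, at 14.40 on GT/M2TAD and 10.80 on MEF, and Gaa, the acid glucosidase that breaks down glycogen in lysosomes, 11.0-fold, at 15.81 and 12.34. Tpp1, a lysosomal peptidase, was 10.4-fold higher. Enzymes of the lumen thus lead the list. The autophagosome proteins Gabarapl1 and Map1lc3b were 10.2-fold and 7.34-fold higher, the cargo receptor Sqstm1 4.52-fold and the lysosomal calcium channel Mcoln1 4.18-fold. Lamp1 and Lamp2, which line the membrane, were 2.71-fold and 3.92-fold higher. On the native isoform arrays these genes stood near GT/M2TAD, with Gaa at 15.52 to 16.02 and Ctsa at 16.11 to 16.28. The vacuolar ATPase, the proton pump that makes lysosomes acidic, was listed after values were seen and shares Atp6v0d1 and Atp6v1h with the lysosome list. Of its 15 subunit genes above background, 13 were higher and none lower, with a median of 1.63, and 2 were higher with background at the 99th percentile of the control probes. The list was led by Atp6v0a1, a membrane subunit, at 15.52 on GT/M2TAD and 11.68 on MEF, 14.3-fold higher.

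CACGTG is the core that the lysosomal regulator TFEB and other basic helix-loop-helix factors bind. It was in 4 of 18 lysosome promoters found (22.2%) and in 1 of 10 vacuolar ATPase promoters (10.0%). The share was 6.88% over all 15691 promoters and 9.25% over the 4889 found among genes above background. CACGTG shared bases with GATAA in 5 promoters of all. A pair that holds it is shown with CACGTG in capitals.

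Gaa, chr11:119267713-119267962, plus strand: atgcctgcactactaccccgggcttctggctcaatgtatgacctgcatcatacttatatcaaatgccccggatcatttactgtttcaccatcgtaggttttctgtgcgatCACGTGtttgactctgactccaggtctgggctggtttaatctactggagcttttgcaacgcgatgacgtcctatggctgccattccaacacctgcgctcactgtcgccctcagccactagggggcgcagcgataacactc

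Mcoln1, chr8:3500269-3500518, plus strand: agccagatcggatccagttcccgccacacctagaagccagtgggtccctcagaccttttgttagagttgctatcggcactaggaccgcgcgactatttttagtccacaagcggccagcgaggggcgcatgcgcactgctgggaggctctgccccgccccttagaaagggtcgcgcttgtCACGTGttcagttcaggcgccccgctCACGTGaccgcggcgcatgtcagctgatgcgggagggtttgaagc

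The site nearest the start lay 135 bases before it in Gaa and 40 bases before it in Mcoln1, which held 2.

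**Figure D3:**
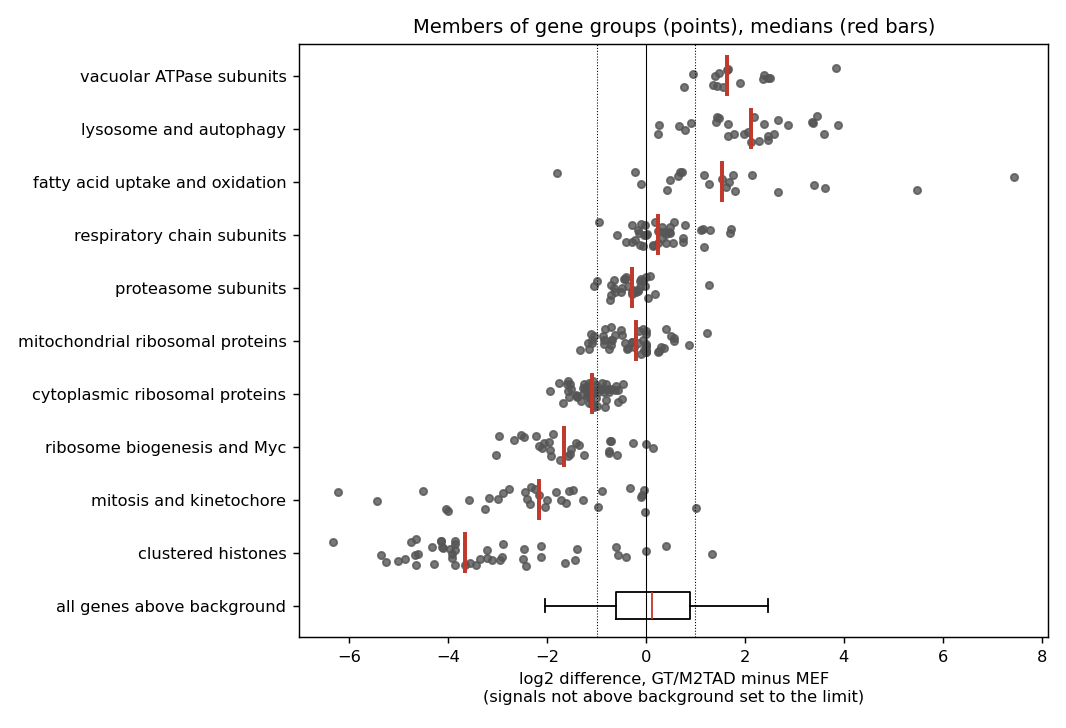
Log2 difference, GT/M2TAD minus MEF, for members of 10 gene groups above background on at least 1 array, each member a point and each median a red bar, with signals not above background set to the limit; the box below spans the quartiles of all 5947 genes and its whiskers run to the 5th and 95th percentiles. Vacuolar ATPase and lysosome genes sit right of 0, proteasome, respiratory chain and mitochondrial ribosomal genes around it, cytoplasmic ribosomal proteins in a narrow band near -1, and most histones well left of 0.

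Matrix genes define fibroblasts, and of 10 fibrillar and network collagens above background 8 were lower and none higher, with a median of -1.88. Of the 10, 6 were above background on MEF alone, so these could not count as higher. Col6a3, a chain of beaded-filament collagen, had 6.94 on GT/M2TAD and 13.23 on MEF, at least 18.3-fold lower, and Col3a1 was at least 14.4-fold lower. The chains of type I collagen remained high: Col1a1 had 13.61 on GT/M2TAD and 15.51 on MEF, 3.73-fold lower, and Col1a2 11.36 and 15.20, 14.3-fold lower. Col4a2, of basement membranes, was at 11.40 on GT/M2TAD and 11.45 on MEF. Of 24 proteoglycan, elastic fibre and matricellular genes, 14 were lower and 1 higher. Tnc, tenascin C, was 34.9-fold lower, at 12.66 on GT/M2TAD and 17.79 on MEF, Vcan, versican, 21.8-fold and Bgn, biglycan, 8.12-fold. Efemp1, a fibulin, was the 1 higher gene (2 genes after quantile normalization or level-dependent centring), 11.5-fold, at 14.61 on GT/M2TAD and 11.08 on MEF. Dcn, decorin, was at 9.15 on GT/M2TAD and 8.54 on MEF, within 2-fold, against 13.52 to 15.24 on the native isoform arrays.

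Collagen processing enzymes went both ways, 7 of 15 higher and 6 lower. The crosslinking oxidases were lower: Lox, at 14.98 on GT/M2TAD and 18.39 on MEF, was 10.6-fold lower, Loxl1 17.0-fold and Loxl3 20.2-fold. Tll1, a tolloid protease that trims procollagen, was at least 28.1-fold lower, while its relative Bmp1 was 3.83-fold higher and Pcolce, which helps both, 6.41-fold higher. P3h2, a prolyl hydroxylase of collagen, was at least 19.1-fold higher, at 13.06 on GT/M2TAD and 8.11 on MEF. Of 18 proteases and inhibitors, 10 were lower and 3 higher. Adam12 was at least 14.4-fold lower, Plaur, the urokinase receptor, at least 10.6-fold, and Plau, urokinase itself, at least 5.86-fold. Timp3, a matrix-bound inhibitor, was 5.39-fold higher, at 15.86 on GT/M2TAD and 13.43 on MEF, while Timp1 was 3.57-fold lower. Integrin and laminin genes were more often higher, 8 of 19 against 2 lower, although median centring turned their median below 0. Nid2, a nidogen that joins laminin to collagen IV, was 74.2-fold higher, at 16.19 on GT/M2TAD and 9.98 on MEF, and Itga9 was at least 6.13-fold higher. Itga5, the fibronectin receptor chain, was 4.72-fold lower, and Fn1, fibronectin, 3.74-fold lower, at 16.22 on GT/M2TAD and 18.12 on MEF.

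Genes of fibroblast identity and regulators of mesenchyme, taken as 1 list, were lower in 7 of 13 cases and higher in 1, with a median of -2.41. Snai2, the Slug repressor, had 9.09 on GT/M2TAD and 14.54 on MEF, 43.7-fold lower. Osr1, Prrx1 and Pdgfrb, marks of embryonic connective tissue, were 17.2-fold, 10.3-fold and 10.9-fold lower, with Pdgfrb at 10.18 on GT/M2TAD and 13.62 on MEF. Zeb1, another mesenchymal repressor, was at 12.58 on GT/M2TAD and 12.13 on MEF, so not every such factor was lower. Thy1, a surface mark often used to sort fibroblasts out of reprogrammed cells, was the 1 higher gene, 3.17-fold, at 15.15 on GT/M2TAD and 13.49 on MEF.

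**Figure D4:**
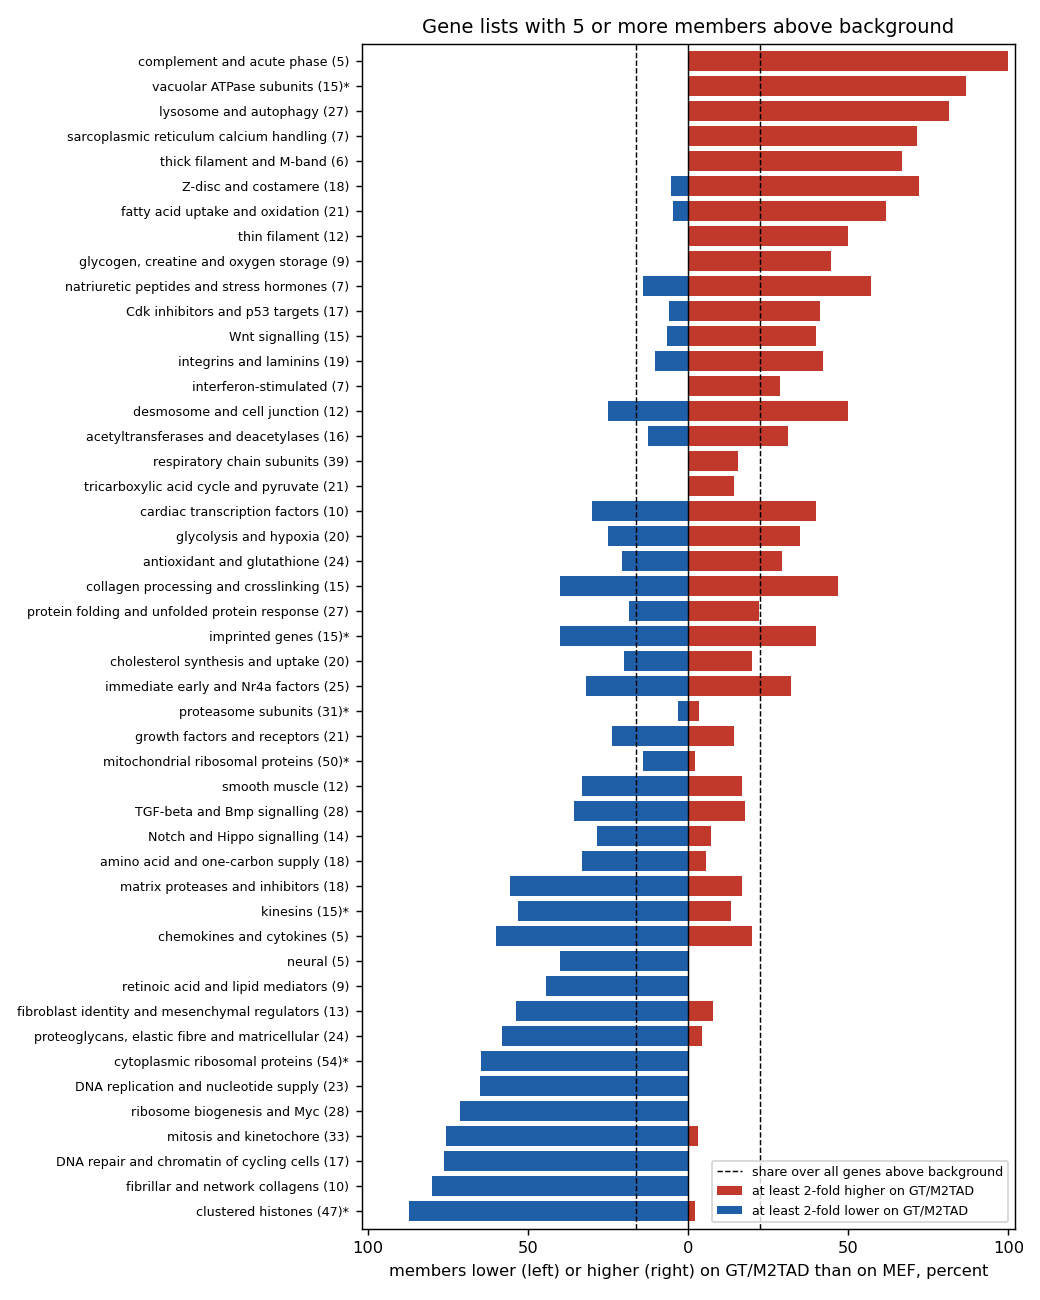
Percent of members at least 2-fold lower (left) and higher (right) on GT/M2TAD than on MEF, for gene lists with 5 or more members above background; the number of members is in brackets, an asterisk marks lists added after values were seen, and dashed lines give the shares over all 5947 genes (22.3% higher, 16.2% lower). Complement, vacuolar ATPase and lysosome lists stand at the top and collagens and histones at the bottom.

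Signalling genes were mixed. In the TGF-beta and Bmp list, 5 of 28 genes were higher and 10 lower. Smad1, which carries Bmp signals, was 18.5-fold higher, at 14.38 on GT/M2TAD and 10.18 on MEF, and the ligand Tgfb2 7.91-fold. The targets Id1, Id2 and Id3, which Bmp signals raise, were lower, by at least 6.16-fold, 8.47-fold and 4.13-fold, so the transducer and its usual targets stood on opposite sides. Inhba, an activin chain, was 24.0-fold lower, at 11.90 on GT/M2TAD and 16.48 on MEF. In the Wnt list, 6 of 15 were higher and 1 lower, and Fzd6, a receptor, was at least 17.0-fold higher and Rspo3, an amplifier, at least 9.76-fold, at 12.09 on GT/M2TAD and 5.84 on MEF. Quantile normalization, median centring and centring by signal level each left 3 higher. In the Notch and Hippo list, 1 of 14 genes was higher, with a log2 difference of 3.13, and 4 were lower. Among the lower genes, Jag1, a Notch ligand, was at least 14.7-fold lower. Of the growth factors, Igf1 was 4.42-fold higher, at 11.83 on GT/M2TAD and 9.68 on MEF, while Igf2 was 16.3-fold lower, at 15.37 and 19.40.

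Immediate early genes and Nr4a receptors divided evenly, 8 of 25 higher and 8 lower, while quantile normalization left 4 higher, median centring 4 and centring by signal level 5. Egr1, the serum-induced zinc finger factor, was 24.4-fold lower, at 10.08 on GT/M2TAD and 14.69 on MEF, Fosl1 at least 15.0-fold and Jun 8.89-fold. Nr4a3, an orphan receptor, went the other way and was at least 10.3-fold higher, at 12.17 on GT/M2TAD, 5.52 on MEF and 6.36 to 6.98 on the native isoform arrays. Ptgs2, cyclooxygenase-2, was 41.8-fold lower, at 9.90 on GT/M2TAD and 15.29 on MEF, and Crabp1, a retinoic acid carrier, at least 9.72-fold.

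Few immune genes were above background. Of 40 measured chemokines and cytokines, 5 were, 3 of them lower, among them Csf1, the macrophage growth factor, 12.8-fold lower, at 13.65 on GT/M2TAD and 17.33 on MEF. Ccl17, a T cell chemokine, was at least 13.1-fold higher, at 12.52 on GT/M2TAD, 7.14 on MEF and 6.59 to 7.76 on the native isoform arrays. Complement and acute phase genes above background were all higher, 5 of 5, of which 3 were above background on GT/M2TAD alone. Clu, clusterin, had 18.71 on GT/M2TAD and 9.69 on MEF, 517-fold higher, and the serpin Serpina3n was at least 46.1-fold higher. Of 39 interferon genes, 7 were above background, 2 of them higher and none lower, or 1 higher after quantile normalization or median centring.

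Of 27 protein folding genes, 6 were higher and 5 lower, or 8 lower after median centring, shares near those of all genes. Hspb7, a small heat shock protein of heart and muscle, was at 15.88 on GT/M2TAD and 7.29 on MEF, at least 135-fold higher, and Hspb1 was 6.50-fold higher. The mitochondrial pair Hspd1 and Hspe1 was 4.31-fold and 3.61-fold lower. Of 16 acetyltransferases and deacetylases, 5 were higher and 2 lower. Hdac6, the deacetylase of tubulin, was at least 7.84-fold higher, at 11.78 on GT/M2TAD and 7.45 on MEF. These counts became 3 higher and 5 lower with quantile normalization, 2 and 5 with median centring, and 3 and 4 with centring by signal level. Ep300, the acetyltransferase p300, was at 9.98 on GT/M2TAD and 9.87 on MEF.

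Among genes read on both arrays, those furthest apart upwards after Clu were Parm1, a membrane mucin, at 16.50 on GT/M2TAD and 9.26 on MEF, 152-fold higher, and Jam2, a junctional adhesion molecule, at 18.22 and 11.02, 147-fold higher. Rcan2, a calcineurin regulator, was 126-fold higher, at 15.94 on GT/M2TAD and 8.96 on MEF, and Sort1, the sorting receptor sortilin, 53.4-fold. Tspan12, a tetraspanin, and Dtna, dystrobrevin of the muscle membrane complex, were 38.8-fold and 37.6-fold higher. Rcan2 had 13.49 to 13.97 on the native isoform arrays, below GT/M2TAD, and Tspan12 had 14.51 to 14.61, above it. Downwards, Fscn1, the actin bundler fascin of motile cells, was 57.7-fold lower, at 10.18 on GT/M2TAD and 16.03 on MEF, and Zfp36l2, which destabilizes messenger RNAs, 32.0-fold. Tm4sf1, a membrane protein of migrating cells, was at least 133-fold lower, at 8.30 on GT/M2TAD and 16.10 on MEF.

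**Figure D5:**
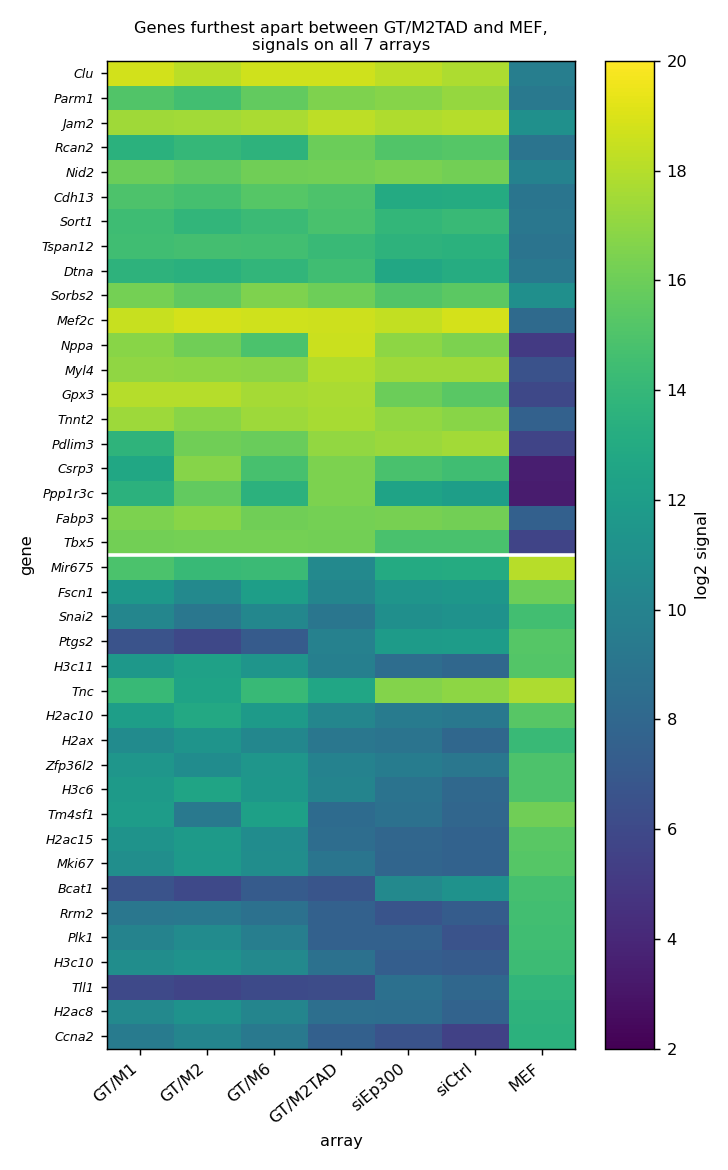
Log2 signal on all 7 arrays for the genes furthest apart between GT/M2TAD and MEF, higher genes above the white line and lower genes below it, ranked within genes read on both arrays and then within genes read on 1 of them. The MEF column stands apart for nearly every gene, but the genes were chosen by the difference between GT/M2TAD and MEF. Several genes, such as Mir675, Ptgs2, Bcat1 and Tnc, differ among the transduced arrays.

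The lowest gene of all read on both arrays was Mir675, with 10.46 on GT/M2TAD, 18.05 on MEF and 14.15 to 14.90 on the native isoform arrays, 193-fold lower than on MEF. Mir675 is the gene of miR-675, a microRNA cut from the imprinted long RNA H19, which lies beside Igf2. Which RNA the probes of this set read, the host, the precursor or the mature strands, was not given. The mature strands, from RefSeq on GRCm38.p6, are shown with the seed, bases 2 to 8, in capitals, and their seeds differ.

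mmu-miR-675-3p, chr7:142577078-142577099, minus strand: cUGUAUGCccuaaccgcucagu

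mmu-miR-675-5p, chr7:142577112-142577133, minus strand: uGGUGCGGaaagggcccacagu

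Because Mir675 and Igf2 are imprinted, the other imprinted genes were listed after these values were seen. Of 15 above background, Mir675 and Igf2 among them, 6 were higher and 6 lower. Igf2, Dlk1 and Slc38a4 were lower, Igf2 by 16.3-fold, Slc38a4, an amino acid carrier, by 19.6-fold, at 10.09 on GT/M2TAD and 14.38 on MEF, and Dlk1, a preadipocyte factor, by at least 22.6-fold. Plagl1, a zinc finger factor, was at least 6.70-fold lower, at 6.95 on GT/M2TAD and 11.79 on MEF. Mest had 17.96 on GT/M2TAD and 14.47 on MEF, 11.2-fold higher, and Peg10 14.03 and 10.81, 9.29-fold higher. Imprinted genes were thus not moved as a group in 1 direction.

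Lists for other cells that the dish could hold were short of signal. None of 16 measured macrophage genes was above background on either array. Of 17 endothelial genes, 3 were, and the defining Pecam1, at 3.72 on GT/M2TAD and 3.09 on MEF, and Cdh5, at 2.89 and 3.52, were not. Flt1, a receptor for vascular growth factors, was 4.83-fold higher, at 15.55 on GT/M2TAD and 13.28 on MEF. Neural genes above background numbered 5 of 19, epithelial and mesothelial genes 2 of 17, adipocyte genes 3 of 16, and chondrocyte and osteoblast genes 1 of 18. Krt19, a keratin, was at 10.46 on GT/M2TAD and 6.58 on MEF, at least 3.15-fold higher, and Sox9, the chondrocyte factor, at 8.58 and 10.72, at least 3.19-fold lower.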

How the data were processed

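RNA of 7 cultures was read on Clariom S mouse arrays, 1 array for each culture. The deposited values are log2 signals that the authors made with the SST-RMA method, per the series text, and Affymetrix Expression Console 1.4 is named per the submitters' processing notes. The genome build of their annotation is not given in the sources used here.

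Of 28846 probe sets, 19572 carried a gene symbol, for 19505 genes. For the 55 genes with several sets, the set with the highest mean was used. Names came from the platform annotation, and RefSeq of GRCm38.p6 gave current symbols, chromosomes, promoter windows and mature microRNAs. Signals at or below the 95th percentile of the array's negative-control probes were set to that limit, and the difference of the log2 values of both arrays was taken. With 1 array on each side no test was possible, and the number of arrays limits the precision. The calculation was tested on simulated data.

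The genes named are the 10 furthest apart in each direction among genes read on both arrays and among genes read on 1, the transduced factors, the markers, and the members furthest apart of each gene list, up to 6 each way. Other members, including those within 2-fold, were named where they are well-known parts of a list, and these were chosen after their values were seen. The first 48 lists hold 1464 genes, of which 1351 were measured and 688 were above background. The 7 added lists were not counted in these totals. The members and lists were chosen with earlier results of these data known, and the 7 lists after values were seen. Alternatives changed the background limit, the scaling, the rule for several sets, predicted genes and the fold. Probe sets without a symbol were left out of the comparisons. Python 3.11.15, numpy 2.4.6, pandas 2.3.3, statsmodels 0.14.6 and matplotlib 3.10.9 were used.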

Additional observations from a re-analysis of the deposited data

Results flagged for a closer look

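Thy1, a surface marker of fibroblasts, was 1.66 higher on the log2 scale on GT/M2TAD than on MEF, at 15.15 on GT/M2TAD and 13.49 on MEF. On the arrays with isoform 1, 2 or 6 its signal was 11.47 to 11.82, below MEF. It was also below MEF on the siRNA arrays, at 12.62 on siEp300 and 12.89 on siCtrl. The titles and source names of that pair disagree on the Mef2c form, so either array may carry the fusion. Of the transduced arrays, GT/M2TAD alone thus lay above MEF, which all these comparisons share. This rests on 1 array, and the difference was not tested.

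Probe sets for transcripts without a gene symbol, which the comparisons do not use, were counted by the same rule. Of 2634 such sets, 587 were above background on at least 1 of both arrays. Of these, 105 were at least 2-fold higher and 134 at least 2-fold lower on GT/M2TAD than on MEF. Among the 5947 named genes, 22.3% were higher and 16.2% lower.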

How the results depend on the processing

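No paired analysis was possible because each condition had 1 array, and for the same reason no replicate could be left out. The height of the background limit moved the counts most. With the limit raised to the 99th percentile of those probes, 1551 genes remained, 230 higher and 244 lower. There the Z-disc list had 8 genes higher, fatty acid oxidation 3 and lysosome 14, while mitosis had 2 lower, ribosome biogenesis 5, collagens 2 and clustered histones 22. Also at that limit, 1 thick filament gene was higher (median 0.37 in place of 3.45). So were 2 thin filament, 3 calcium handling, 1 natriuretic and hormone, 2 vacuolar ATPase and 2 complement genes. Lower were 3 replication, 4 repair, 5 proteoglycan and 2 protease genes, and 3 genes of fibroblast identity and mesenchymal regulators. The Wnt, acetyltransferase and deacetylase, skeletal muscle, interferon, mitochondrial ribosomal and kinesin lists kept no gene higher or lower. In the immediate early list none stayed higher and 3 were lower, in place of 8 and 8. The TGF-beta and Bmp list had 2 higher and 2 lower, in place of 5 and 10. With the limit at the median of named genes, 2523 genes were higher and 1693 lower. At 4-fold in place of 2-fold, 470 genes were higher and 309 lower, with 6 higher in fatty acid oxidation and 9 lower in ribosome biogenesis, 4 in collagens and 0 in cytoplasmic ribosomal proteins. Scaling moved the split of higher and lower genes, to 1100 and 1151 with quantile normalization, 1013 and 1307 with median centring and 1154 and 1107 with level-dependent centring. Measured signals without a limit gave 1629 and 1248, the mean of several probe sets 1328 and 964, and leaving out predicted genes 1309 and 960. Of 508 single genes followed, 278 had a value at the stricter limit, and 77 of these were no longer 2-fold apart. Of the 508, this held for 40 with median centring, 34 with quantile normalization and 29 with level-dependent centring. None of the genes with a value under a setting changed direction there, but this was largely fixed beforehand. A bound that turns round is given no size, and moving the limit cannot turn a difference round. It is therefore no sign that the values are stable. Signals near background limit what the arrays can show, and differences there are bounds.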

Other observations

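Kinesins, the motors of microtubules, were listed after values were seen, and of 15 above background 2 were at least 2-fold higher and 8 lower, with 8 above background on MEF alone. Kif20a, a motor of cytokinesis, was at least 16.5-fold lower, at 7.35 on GT/M2TAD and 13.08 on MEF, and Kif11, the spindle motor, at least 5.12-fold. The higher pair carries cargo in cells that do not divide as well: Kif3a was 3.70-fold higher, at 11.63 on GT/M2TAD and 9.74 on MEF, and Kif1a at least 5.36-fold, at 11.23 and 7.66. Kif5b, the common transport kinesin, was at 15.53 on GT/M2TAD and 14.77 on MEF, within 2-fold.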
